A study of Homo sapiens with 6 samples.

Results

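The genes described here encode the enzymes that bring pyruvate and glutamine carbon into the citrate cycle and the enzymes of the cycle itself. They were chosen by name as 36 gene symbols, and all 36 were found among the 24480 symbols of the deposited expression table. The samples were 6 RNA-seq libraries of LN229, an established human glioblastoma line. There were 3 libraries of cells transduced with vector and 3 of cells transduced to overexpress LACTB, a serine beta-lactamase-like protein of the mitochondrial intermembrane space. The design text gives the question as what LACTB does in glioma cells, and the comparison throughout is LACTB minus vector.

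In the background biology, pyruvate enters the mitochondrion through a carrier and is oxidised to acetyl-CoA by the pyruvate dehydrogenase complex, which kinases switch off and phosphatases switch on. Acetyl-CoA condenses with oxaloacetate to citrate, which is oxidised stepwise back to oxaloacetate. Glutamate feeds the cycle when glutamate dehydrogenase or transaminases turn it into 2-oxoglutarate, and glutamine synthetase uses glutamate to make glutamine. Glial cells are known for high glutamine synthetase.

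Values are read here as normalized read counts, a unit inferred from the table itself, and column totals ran from 34907394 to 41384595, lower in the 3 LACTB libraries than in any vector library. LACTB itself held 458, 515 and 393 in vector and 4268, 4078 and 4203 in LACTB libraries, a log2 difference of 3.21 (SE 0.13, limma adjusted p = 2.95e-14). All 8 markers of the line were above the low-value limit, the astrocyte filament gene GFAP with means of only 74.5 and 122. They moved both ways: VIM, CD44, SOX2 (log2 difference 1.24) and GFAP rose, S100B (-1.22), OLIG2 and FABP7 fell, and NES was not called. Among oligodendrocyte genes MBP (-3.01) and MAG (-2.13) fell and MOG (0.81) rose. Marker sums of 2 other cell types did not overlap between the groups. The immune list, nearly all of it CD68, summed to between 1041 and 1173 in vector and between 1596 and 1693 in LACTB libraries, with PTPRC, AIF1 and CD14 under the low-value limit. The epithelial list, nearly all of it KRT14, summed to between 74.2 and 161 and between 193 and 278, with EPCAM and CDH1 under that limit. The neuron and endothelial sums overlapped, although the neuron gene SYT1 rose 3.09-fold. The part of these markers in the results was not tested. In the vector columns 22530 genes were above 0 in all 3 libraries and 0 in only some of them, whereas 4223 genes were above 0 in only some LACTB libraries. How this pattern bears on the spread behind the errors and p-values was not tested. No label ties the libraries to separate cultures, and the p-values therefore measure only how far these libraries scatter, and that scatter may be technical. In bulk RNA a smaller number of cells with a transcript and less transcript per cell cannot be told apart.

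Most of the citrate cycle and entry genes that changed were lower with LACTB. Of the 36 members 35 were measured at a mean of at least 1 CPM (37.7 normalized counts), and ME3 lay below it. Of these 35, 14 fell and 3 rose at a limma adjusted p under 0.05, and 18 did not pass. Over all 12939 genes tested 24.6% fell and 27.4% rose, 51.9% in all. Their median log2 difference was -0.20, against 0.05 over all genes tested. All 3 LACTB libraries lay below all 3 vector libraries for 15 members, and above them for 4. Among all genes these shares were 28.7% and 31.1%, or 59.7% together.

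The count of falls depended on how the libraries were scaled. With every column set to the same total, 6 members fell and 5 rose (14.8% and 38.4% of all genes) and the median was -0.005, against 0.24 over all genes. With the log values of each library centred on their median, 18 fell and 3 rose (32.1% and 20.7% of all genes), with medians of -0.33 for the members and -0.09 for all genes. The 36 genes together made up 0.342%, 0.331% and 0.328% of the total in vector libraries against 0.307%, 0.307% and 0.310% with LACTB, so their share did not overlap between the groups.

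Differences across the transcriptome also followed transcript length and GC content, and the members shared this. Across the 35 members, which are not independent replicates and share the same 6 libraries, Spearman's rho of the log2 difference was -0.41 with GC content and 0.32 with the length of the longest transcript. Over 12722 genes the values were -0.45 and 0.41. Of the 11 members with a GC content of at least 50%, 8 fell and none rose, and of the 24 others 6 fell and 3 rose. The same split was not made over all genes. Whether it differs from that of other genes of like GC content therefore cannot be said. Removing the length and GC trend from every library (length/GC correction) left 14 members lower and 3 higher, against 21.9% and 27.5% of genes, and not all were members called as deposited. The part of GC and length in single results was not tested beyond this correction, whose values are given beside the members.

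**Figure D1:**
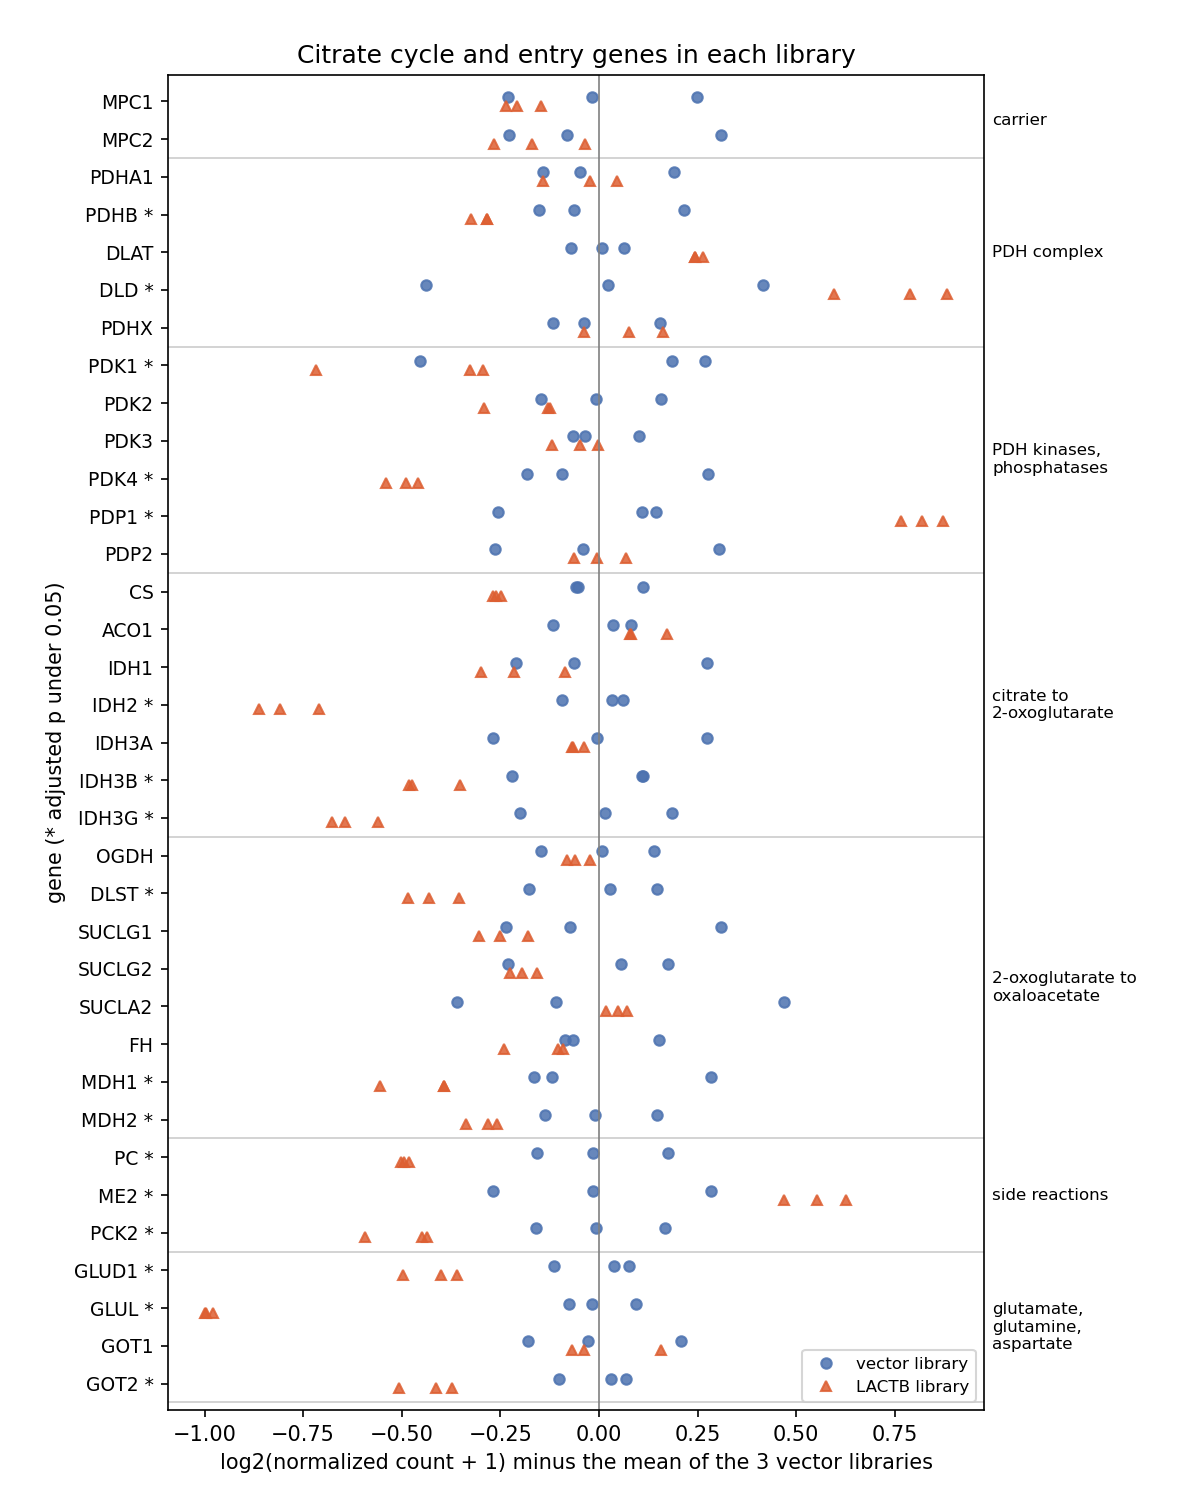
Each row is 1 of 35 genes and each point 1 library, as log2(normalized count + 1) minus the mean of the 3 vector libraries (circles vector, triangles LACTB; stars mark adjusted p under 0.05). GLUL and IDH2 sit farthest to the left, and DLD, PDP1 and ME2 are the called genes on the right.

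Calls on 6 members held in all 17 other fits tried. Glutamine synthetase (GLUL), the mitochondrial isocitrate dehydrogenase IDH2, pyruvate carboxylase (PC) and the mitochondrial aspartate aminotransferase GOT2 fell. Dihydrolipoamide dehydrogenase (DLD) and the pyruvate dehydrogenase phosphatase PDP1 rose. GLUL lies at chromosome 1, 182381704 to 182392206, IDH2 at chromosome 15, 90083045 to 90102504, PC at chromosome 11, 66848233 to 66958376, and GOT2 at chromosome 16, 58707131 to 58734357, all on the minus strand of GRCh38 (GENCODE 29). DLD lies at chromosome 7, 107890970 to 107931730, and PDP1 at chromosome 8, 93857807 to 93926066, both on the plus strand.

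**Figure D2:**
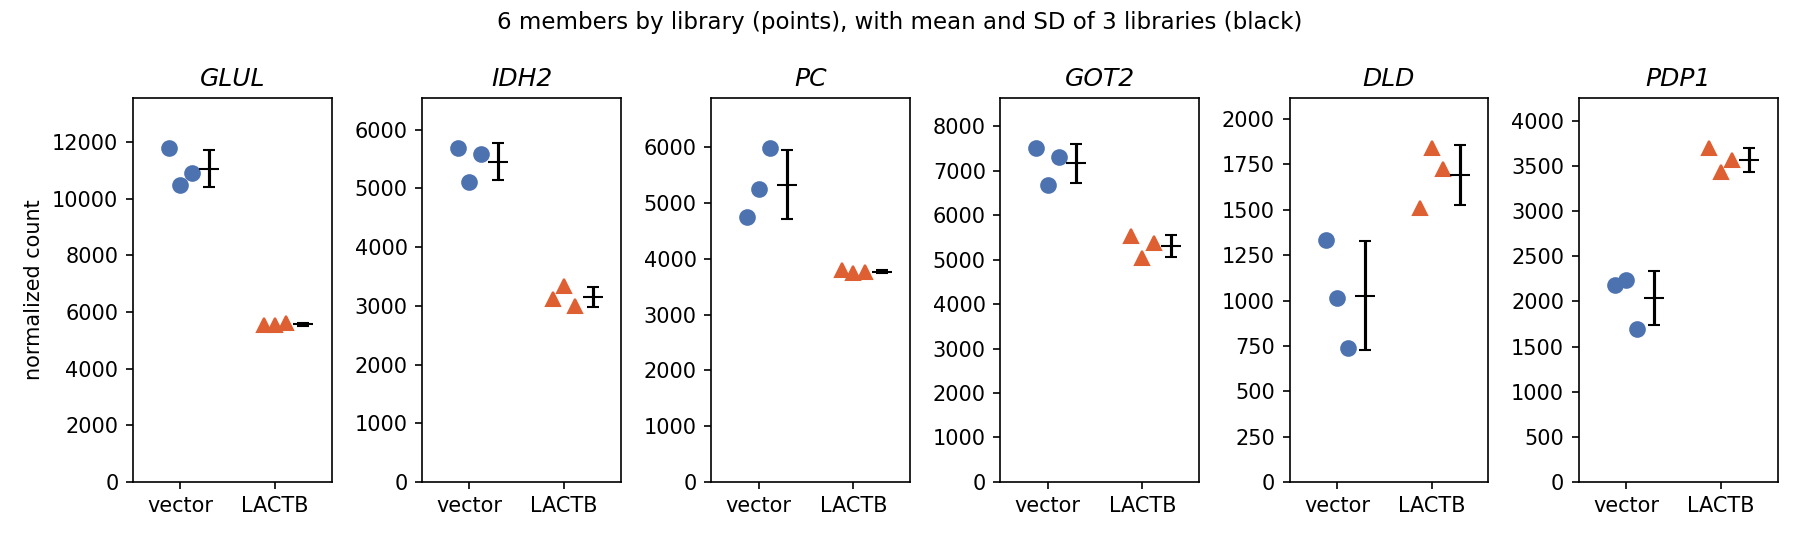
Normalized counts of the 6 members by library (circles vector, triangles LACTB), with mean and SD of 3 libraries in black and each vertical axis starting at 0. The groups do not overlap for any of the 6, and the 3 LACTB values of GLUL and PC are close together.

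Upstream sequence is shown for 4 of these genes, 3 that fell and 1 that rose. Each is the longest stretch free of annotated exons in the 250 bases before the outermost RefSeq start (GRCh38.p14), written 5′ to 3′ on the strand of the gene, and 34 of the 36 members had an entry. For GOT2, IDH2 and DLD the bases nearest the start are left out. The outermost GLUL window had no exon-free stretch long enough to show, although GLUL windows held CCAAT and GC box matches. PDP1 is not shown either. Capitals mark matches on either strand to CCAAT or to the GC box GGGCGG, which do not overlap each other.
PC, chr11:66958384-66958633, minus strand: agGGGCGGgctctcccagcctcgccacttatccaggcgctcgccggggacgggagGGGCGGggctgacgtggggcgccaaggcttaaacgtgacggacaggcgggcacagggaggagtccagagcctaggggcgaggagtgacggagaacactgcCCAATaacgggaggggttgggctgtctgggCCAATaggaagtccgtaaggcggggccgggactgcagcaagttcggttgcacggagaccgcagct
GOT2, chr16:58734358-58734566, minus strand: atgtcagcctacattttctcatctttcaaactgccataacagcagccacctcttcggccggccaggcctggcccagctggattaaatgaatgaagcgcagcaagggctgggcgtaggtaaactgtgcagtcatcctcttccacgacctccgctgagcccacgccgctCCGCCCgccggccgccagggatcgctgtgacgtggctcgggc
IDH2, chr15:90100696-90100871, minus strand: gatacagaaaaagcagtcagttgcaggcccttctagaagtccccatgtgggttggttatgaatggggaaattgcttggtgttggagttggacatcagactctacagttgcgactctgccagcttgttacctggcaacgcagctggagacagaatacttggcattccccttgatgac
DLD, chr7:107890857-107890969, plus strand: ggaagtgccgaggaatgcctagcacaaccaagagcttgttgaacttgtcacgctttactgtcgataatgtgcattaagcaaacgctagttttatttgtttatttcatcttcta
The PC stretch held 2 CCAAT and 2 GC box matches, where 32.0% and 42.6% of all 35116 windows hold at least 1. The GOT2 stretch held 1 GC box match (36.9% of all windows over the same 209 positions). The IDH2 stretch of 176 bases, which lies inside the GENCODE bounds of IDH2, held neither (23.0% and 30.6% of windows). The DLD stretch of 113 bases also held neither, and over the same positions 19.4% of all windows hold GGGCGG. A full DLD window of 250 bases did hold CCAAT, not within the stretch shown, so the absence of CCAAT applies to that stretch only. The E-box CACGTG and the cAMP response element TGACGTCA were also searched and had no match in any of the 4. A match is a description of letters and no evidence of binding.

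Pyruvate entry by the carrier showed no called difference. MPC1 and MPC2 encode the paired subunits of the mitochondrial pyruvate carrier. MPC1 stood at 767, 550 and 638 in vector and 559, 548 and 584 in LACTB libraries (log2 difference -0.20, 95% interval -0.51 to 0.12, adjusted p = 0.285). MPC2 stood at 1758, 1212 and 1340 against 1261, 1180 and 1384 (-0.16, interval -0.44 to 0.13, adjusted p = 0.353). The first vector library was the highest for both genes, and the groups overlapped. With quantile normalization MPC1 passed at -0.38 (adjusted p = 0.042).

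Within the pyruvate dehydrogenase complex the subunits went different ways. DLD, the E3 subunit that the 2-oxoglutarate and branched-chain complexes also use, rose from 1332, 1015 and 736 in the vector libraries to 1510, 1840 and 1724, a log2 difference of 0.76 (SE 0.16, adjusted p = 0.000552). Every LACTB library was above every vector library, although the vector libraries themselves spread widely. The value was 0.47 after length/GC correction and ran from 0.54 to 0.96 when 1 library was left out. DLD exons overlap those of LAMB1, a laminin gene on the opposite strand with means of 7702 and 11418, which rose by 0.60 (adjusted p = 0.0014). No strand setting is given in the sources used here, so reads of DLD and LAMB1 in the overlap cannot be told apart.

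PDHB, the E1 beta subunit, held 3630, 2816 and 2991 against 2566, 2496 and 2568 and fell by 0.30 (SE 0.12, adjusted p = 0.0371). All LACTB libraries were lower, but the call was close to the threshold. It was lost with equal column totals (adjusted p = 0.43), with quantile normalization (0.12), with no filter (0.063), with limma without trend and robust settings (0.089) and without vector replicate 1 (0.079) or any 1 LACTB library (0.088 to 0.13). PDHA1, the E1 alpha subunit that carries the regulatory phosphorylation sites, stood at 1656, 1404 and 1314 against 1427, 1315 and 1497 (-0.04, interval -0.30 to 0.22). DLAT, the E2 acetyltransferase, stood at 501, 475 and 521 against 598, 591 and 590. Its groups did not overlap, yet its difference of 0.25 did not pass (adjusted p = 0.151), and it passed only with equal column totals (0.44, adjusted p = 0.017). PDHX, the E3-binding subunit, stood at 580, 663 and 550 against 580, 667 and 628, which overlap (0.07, interval -0.23 to 0.37).

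Among the regulators of the complex, the phosphatase PDP1 rose and 2 of the 4 kinases fell, where 27.4% of all genes tested rose and 24.6% fell. With equal column totals none of the kinases fell. PDP1, which removes the inhibitory phosphates, went from 2182, 2237 and 1694 to 3700, 3439 and 3566, or 1.75-fold (log2 difference 0.82, SE 0.12, adjusted p = 9.74e-06). The lowest LACTB library was well above the highest vector library, and the difference was 0.51 after length/GC correction. Its paralog PDP2 stood at 683, 1013 and 798 against 860, 817 and 785, with a difference of 0.00 (interval -0.31 to 0.30). After length/GC correction PDP2 passed at -0.37 (adjusted p = 0.017).

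The kinases inactivate the complex by phosphorylating its E1 alpha subunit. PDK1, known as a hypoxia-induced kinase, held 620, 657 and 398 in vector and 331, 435 and 445 in LACTB libraries and fell by 0.45 (adjusted p = 0.049). The groups overlapped, since the third vector library lay below 2 of the LACTB libraries. The PDK1 call was lost with equal column totals (adjusted p = 0.32), with limma without trend and robust settings (0.11) and without vector replicate 1 (0.14), vector replicate 2 (0.24) or LACTB replicate 1 (0.22). After length/GC correction its difference was -1.18. Its longest annotated transcript, 14193 bases, is the longest among the members.

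PDK4, the kinase linked to fasting and fatty acid use, held 205, 265 and 193 against 150, 155 and 159 and fell by 0.50 (adjusted p = 0.043). Its groups did not overlap, but the call was lost with equal column totals (adjusted p = 0.23), with no filter (0.083) and without vector replicate 2 (0.15) or any 1 LACTB library (0.088 to 0.11). PDK2 stood at 447, 492 and 552 against 404, 454 and 452 (-0.18, interval -0.50 to 0.14). It passed with quantile normalization (-0.37, adjusted p = 0.045). PDK3 stood at 289, 318 and 283 against 286, 295 and 272 (-0.06, interval -0.41 to 0.30).

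Of the 7 genes from citrate synthesis to 2-oxoglutarate, 3 fell and none rose (24.6% and 27.4% of all genes tested). With equal column totals 3 fell and 1 rose. CS, citrate synthase, had 12082, 12029 and 13537 in vector and 10546, 10455 and 10403 in LACTB libraries. All 3 LACTB values were lower, and the difference of -0.26 just missed the threshold (adjusted p = 0.0505). It passed with median centring (-0.39, adjusted p = 0.011), a filter at 5 CPM (0.048) and without vector replicate 1 (0.012) or vector replicate 2 (0.026), and was -0.07 with equal column totals. ACO1, the cytosolic aconitase that doubles as an iron regulatory protein, stood at 1966, 2030 and 1770 against 2162, 2027 and 2032 (0.11, adjusted p = 0.428). Its direction turned after length/GC correction (-0.23, adjusted p = 0.037), and with equal column totals it passed upward (0.30, adjusted p = 0.038).

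Of the NADP-linked isocitrate dehydrogenases only IDH2 was called as deposited, and the difference between them is given by their ratio further on. IDH2, the mitochondrial enzyme, fell from 5687, 5105 and 5580 to 3114, 3331 and 2997, to 0.577 of the vector mean (log2 difference -0.79, SE 0.11, adjusted p = 4.04e-06). Every LACTB library lay far below every vector library, and the difference was -0.49 after length/GC correction. IDH1, the cytosolic and peroxisomal enzyme, stood at 5002, 3959 and 3578 against 3365, 3561 and 3895 (-0.20, interval -0.46 to 0.06, adjusted p = 0.183). IDH1 passed with median centring (-0.33, adjusted p = 0.035) and after length/GC correction (-0.26, adjusted p = 0.014).

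The NAD-linked enzyme IDH3 is built from a catalytic alpha subunit and the beta and gamma subunits. IDH3G, the gamma subunit, fell from 4020, 3457 and 4518 to 2695, 2545 and 2487 (-0.63, SE 0.12, adjusted p = 0.000144). IDH3B, the beta subunit, fell from 11724, 9319 and 11697 to 8501, 7776 and 7818 (-0.43, SE 0.12, adjusted p = 0.00356). Both groups were fully apart for both genes. Both calls ended after length/GC correction, at -0.15 (adjusted p = 0.098) for IDH3G and -0.03 (adjusted p = 0.74) for IDH3B. IDH3G and IDH3B have short transcripts of high GC content (61.1% and 54.6%). IDH3G exons overlap those of SSR4 on the opposite strand, a translocon subunit gene with means of 16778 and 10402, which fell by 0.68 (adjusted p = 8.1e-05), and reads in the overlap cannot be told apart. IDH3A, the alpha subunit, stood at 1399, 1152 and 960 against 1103, 1126 and 1105 (-0.06, interval -0.34 to 0.23).

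Of the 8 genes from 2-oxoglutarate back to oxaloacetate, 3 fell and none rose (24.6% and 27.4% of all genes tested). With equal column totals none fell and none rose. OGDH, the E1 subunit of the 2-oxoglutarate dehydrogenase complex, stood at 7177, 7995 and 8760 against 7829, 7510 and 7616 (-0.06, interval -0.29 to 0.17). DLST, its E2 succinyltransferase, fell from 6886, 5501 and 6342 to 4614, 4440 and 4858 (-0.42, SE 0.11, adjusted p = 0.0036). So in this complex E2 was lower, E3 (DLD, above) higher and E1 not called. The DLST call ended with equal column totals (adjusted p = 0.063) and after length/GC correction (-0.19, adjusted p = 0.065), and a processed copy, DLSTP1, is annotated.

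No subunit of succinyl-CoA synthetase passed. SUCLG1, the shared alpha subunit, ranged from 3763 to 5494 in vector and from 3590 to 3909 in LACTB libraries (-0.24, interval -0.51 to 0.02). SUCLG2, the GTP-forming beta subunit, ranged from 2243 to 2968 and from 2248 to 2359 (-0.19, interval -0.44 to 0.06). SUCLA2, the ATP-forming beta subunit, ranged from 348 to 619 and from 452 to 470 (0.05, interval -0.33 to 0.42). For all 3 the vector libraries spread more than the LACTB libraries and enclosed or overlapped them. SUCLG1 and SUCLG2 passed downward with median centring (adjusted p = 0.021 and 0.03) and after length/GC correction (-0.32 and -0.31, adjusted p = 0.0064 and 0.004), SUCLG1 also without vector replicate 2 (0.026) and SUCLG2 without vector replicate 3 (0.028).

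FH, fumarase, stood at 4585, 3938 and 3885 against 3836, 3490 and 3868, just apart between groups and not called (-0.15, adjusted p = 0.286). MDH1, the cytosolic malate dehydrogenase, fell from 7579, 5732 and 5554 to 4238, 4740 and 4742 (-0.45, SE 0.12, adjusted p = 0.00449). Its call ended with equal column totals (adjusted p = 0.084) and quantile normalization (0.056). MDH2, the mitochondrial malate dehydrogenase, went from 16956, 15530 and 18912 to 14284, 14059 and 13516 and fell by 0.29 (adjusted p = 0.0352). MDH2 was the gene with the highest level per kilobase of longest transcript among the members, 7756 in vector and 6317 in LACTB cells. Its call ended with equal column totals (adjusted p = 0.38), quantile normalization (0.52), limma without trend and robust settings (0.076), without vector replicate 3 (0.11) or any 1 LACTB library (0.083 to 0.16), and the sign turned after length/GC correction (0.02, adjusted p = 0.87).

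The side reactions that refill or drain the cycle at pyruvate and malate split by enzyme. PC, which carboxylates pyruvate to oxaloacetate, fell from 4755, 5243 and 5983 to 3799, 3742 and 3762 (-0.49, SE 0.11, adjusted p = 0.00101). Its groups were apart, and the difference was -0.25 after length/GC correction and -0.30 with equal column totals. PC exons overlap those of LRFN4 on the opposite strand, a gene with means of 1990 and 1421, which fell by 0.47 (adjusted p = 0.0067), and reads in the overlap cannot be told apart. The 50 tested genes nearest to PC on chromosome 11 had a median difference of -0.60, and -0.28 after length/GC correction, so neighbouring genes were lower too. For comparison the same medians after length/GC correction were 0.04 around GLUL, -0.01 around IDH2, -0.21 around GOT2, 0.27 around DLD and -0.13 around PDP1. The part of chromosomal position in these results was not tested.

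PCK2, the mitochondrial phosphoenolpyruvate carboxykinase, fell from 1341, 1489 and 1682 to 1097, 992 and 1106 (-0.49, SE 0.13, adjusted p = 0.00256), a call that ended with equal column totals (0.061) and after length/GC correction (-0.09, adjusted p = 0.41). ME2, the mitochondrial NAD-linked malic enzyme, rose from 1289, 1047 and 879 to 1465, 1633 and 1552 (0.55, SE 0.14, adjusted p = 0.00208). After length/GC correction the sign of ME2 turned (-0.06, adjusted p = 0.72). ME3, the mitochondrial NADP-linked malic enzyme, was at most 8.43 normalized counts in any library and was not tested.

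The glutamate and glutamine genes held the largest change among the members. GLUL fell from 11780, 10475 and 10912 in vector to 5537, 5526 and 5608 in LACTB libraries, to 0.503 of the vector mean (log2 difference -0.99, SE 0.11, adjusted p = 1.65e-07). The 3 LACTB libraries were nearly equal and all far below the vector libraries. GLUL fell in every fit tried, with differences of -0.80 under equal column totals and -1.32 after length/GC correction. GENCODE lists 4 pseudogenes named after GLUL, so some reads may have been shared with copies.

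GLUD1, glutamate dehydrogenase, fell from 3212, 3296 and 2888 to 2369, 2214 and 2437 (-0.42, SE 0.11, adjusted p = 0.00342). The call ended only with equal column totals (-0.23, adjusted p = 0.099), and 5 pseudogenes are named after it. GLUD1 exons overlap those of SHLD2 on the opposite strand, which rose by 0.72 (adjusted p = 0.0094) at means of 229 and 363. GOT2, which exchanges amino groups between aspartate and 2-oxoglutarate in mitochondria, fell from 7510, 6678 and 7314 to 5528, 5032 and 5374 (-0.43, SE 0.11, adjusted p = 0.00222), with a difference of -0.21 after length/GC correction. GENCODE lists 4 pseudogenes named after GOT2, and GOT2 exons overlap those of AC092378.1 on the opposite strand. GOT1, the cytosolic counterpart of GOT2, stood at 2634, 2015 and 2238 against 2546, 2222 and 2177 (0.02, interval -0.24 to 0.27). GOT1 passed upward after length/GC correction (0.26, adjusted p = 0.049).

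**Figure D3:**
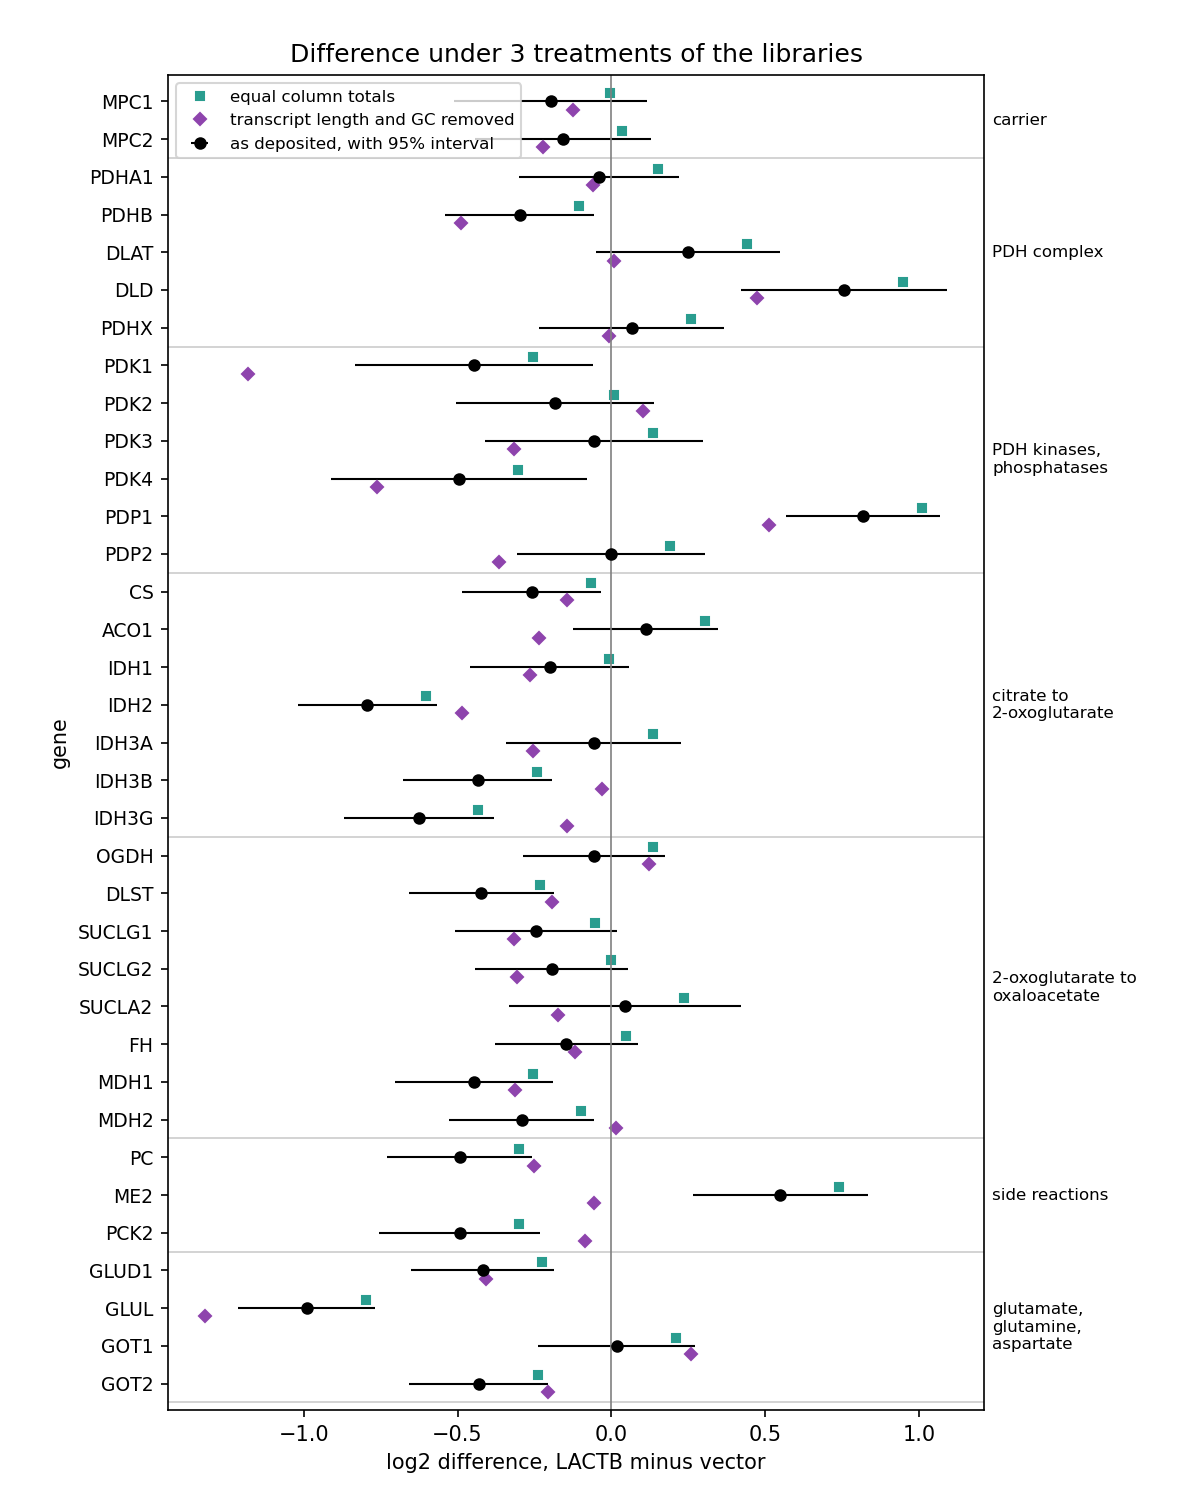
For 35 genes the circle and bar give the log2 difference of LACTB minus vector with its 95% interval as deposited, the square the difference with equal column totals and the diamond that with transcript length and GC removed. GLUL and IDH2 stay to the left and DLD and PDP1 to the right of 0 under all 3, while MDH2 and ME2 cross it.

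Ratios of paired genes within a library do not depend on how libraries are scaled. Of 12 pairs 11 were tested with an exact two-sided permutation test over libraries, which with 3 against 3 cannot go below p = 0.1, so none could pass. The groups did not overlap for 6 pairs, each with exact p = 0.1 (0.183 adjusted over the 11 pairs). The IDH1 to IDH2 ratio was 0.880, 0.776 and 0.641 in vector and 1.08, 1.07 and 1.30 in LACTB libraries, so the order of the counts of the pair turned over. Its log2 difference was 0.59, and 0.22 after length/GC correction. GOT1 to GOT2 went from 0.351, 0.302 and 0.306 to 0.461, 0.442 and 0.405, a log2 difference of 0.45, and 0.46 after length/GC correction. PDP1 to PDP2 went from 3.19, 2.21 and 2.12 to 4.30, 4.21 and 4.54 (0.82, corrected 0.88).

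GLUL to GLUD1 went from 3.67, 3.18 and 3.78 down to 2.34, 2.495 and 2.30 (-0.57, and -0.91 after length/GC correction). IDH2 to IDH3A went from 4.06, 4.43 and 5.81 to 2.82, 2.96 and 2.71 (-0.74, but -0.23 after length/GC correction). PC to PDHA1, the entries by carboxylation and by oxidation, went from 2.87, 3.73 and 4.55 to 2.66, 2.84 and 2.51, where the highest LACTB library lay just under the lowest vector library (-0.45, but -0.19 after length/GC correction). The ratios of MPC1 to MPC2, PDK1 to PDK2, PDK3 to PDK2, SUCLA2 to SUCLG2 and MDH1 to MDH2 overlapped between groups as deposited (exact p from 0.4 to 0.5). These pairs also moved with length/GC correction. PDK1 to PDK2 went from -0.27 to -1.28 and MDH1 to MDH2 from -0.16 to -0.33. The sign turned for PDK3 to PDK2 (0.13 to -0.42) and MPC1 to MPC2 (-0.04 to 0.10), and SUCLA2 to SUCLG2 went from 0.24 to 0.14.

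**Figure D4:**
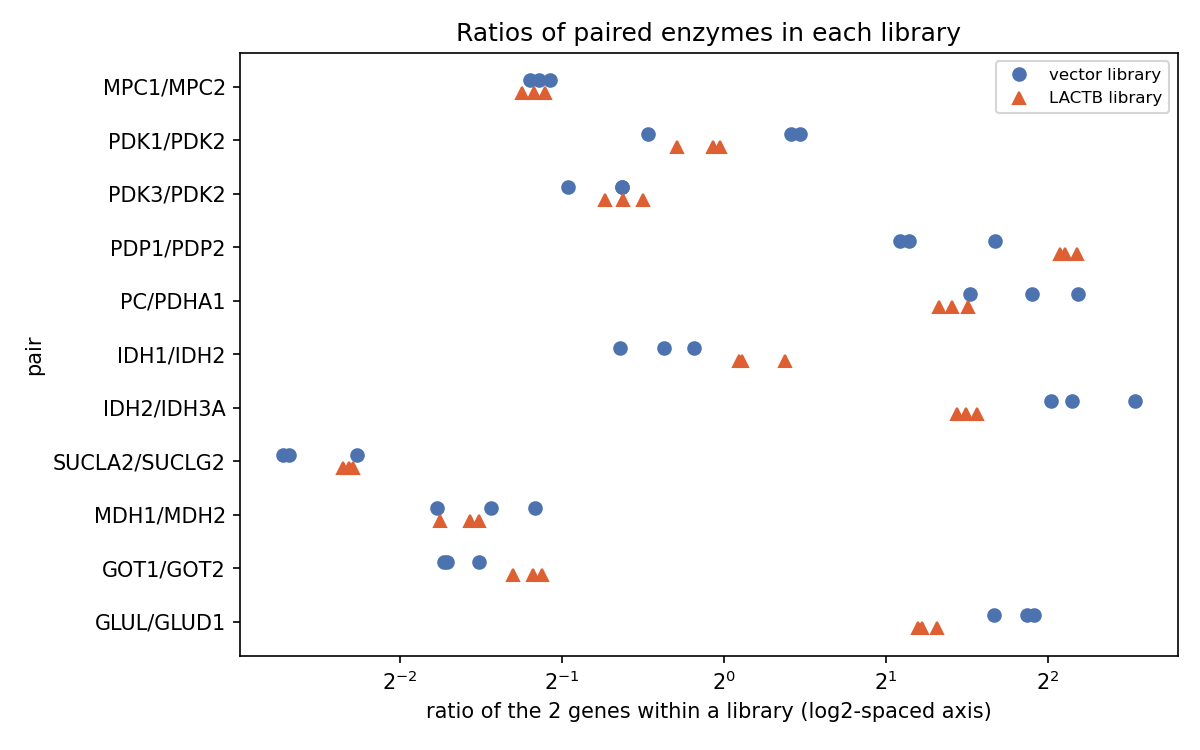
The ratio of 2 genes within each library, on a log2-spaced axis, for the 11 tested pairs (circles vector, triangles LACTB). Groups are apart for PDP1/PDP2, PC/PDHA1, IDH1/IDH2, IDH2/IDH3A, GOT1/GOT2 and GLUL/GLUD1, and overlap for the other pairs.

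Enzymes of the same reactions outside the 36 genes went both ways. Counts in these related lists can be read against the 27.4% of all genes that rose and 24.6% that fell. Of 14 listed, 10 were tested, 4 rose and 3 fell (5 and 1 under equal column totals, 3 and 3 after length/GC correction). D2HGDH, which oxidises D-2-hydroxyglutarate, fell by 0.52 (adjusted p = 0.00133), with a difference of -0.23 after length/GC correction. ACLY, which splits exported citrate, fell by 0.37 (adjusted p = 0.00754), a call lost with equal column totals (0.15), quantile normalization (0.13) and without LACTB replicate 2 (0.054).

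Of 13 tested carriers of citrate cycle intermediates, aspartate, glutamate and glutamine, 3 rose and 3 fell (4 and 1 under equal column totals, 5 and 3 after length/GC correction). SLC38A2, a sodium-coupled neutral amino acid transporter that takes up glutamine, rose from 3824, 4210 and 3139 to 6266, 7276 and 6021 (0.81, SE 0.12, adjusted p = 1.27e-05), and by 0.43 after length/GC correction. SLC38A5, another glutamine transporter, stood at 11.5 ± 1.08 in vector and 69.3 ± 24.3 in LACTB libraries (SD, n = 3 each). Every vector value lay under the low-value limit of 37.7, so SLC38A5 was tested only because its LACTB values were high. It counts among the 3 carriers that rose, but that call is not independent of the filter. SLC25A22, a mitochondrial glutamate carrier, fell from 1694, 2062 and 2467 to 1249, 1021 and 1081 (-0.88, SE 0.14, adjusted p = 1.82e-05), with a difference of -0.47 after length/GC correction. The main glutamine transporter gene of many tumour lines, SLC1A5, is named outside the rule and stood at 6576 ± 840 and 6264 ± 733 (SD, n = 3 each; -0.07).

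**Figure D5:**
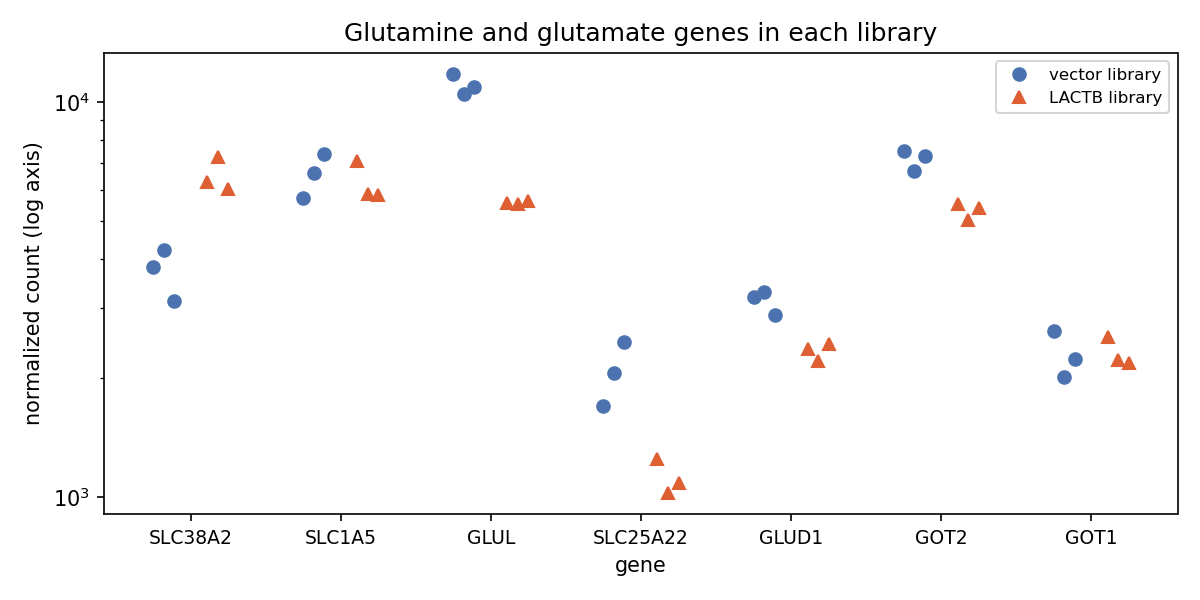
Normalized counts on a log axis for 7 glutamine and glutamate genes, each point 1 library (circles vector, triangles LACTB). SLC38A2 is higher and GLUL, SLC25A22, GLUD1 and GOT2 lower in all 3 LACTB libraries, while SLC1A5 and GOT1 overlap between groups.

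Succinate dehydrogenase oxidises succinate between the steps of the listed enzymes. Of its 4 subunit and 4 assembly factor genes 3 fell and 1 rose (2 and 1 both with equal column totals and after length/GC correction). SDHAF1, which helps insert iron-sulphur clusters, fell by 0.78 (adjusted p = 8.56e-05), a call lost after length/GC correction (-0.22, adjusted p = 0.098). SDHC, a membrane anchor with several annotated pseudogenes, fell by 0.51 (adjusted p = 0.00177), and the difference was -1.17 after length/GC correction. SDHAF4 fell by 0.55 (adjusted p = 0.00506), a call lost with equal column totals (0.062).

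Of 12 genes for the lipoate and thiamine cofactors that the 2-oxoacid dehydrogenases need, 4 fell and none rose, a share of falls near that of all genes. With equal column totals 2 fell and 1 rose, and after length/GC correction 4 fell and 2 rose. NDUFAB1, the mitochondrial acyl carrier protein on which lipoate is built, fell from 8271, 5888 and 7453 to 4149, 3819 and 3948 (-0.84, SE 0.12, adjusted p = 7.66e-06). OXSM, the mitochondrial ketoacyl synthase, fell by 0.71 (adjusted p = 0.00205). FDX1, a ferredoxin, fell by 0.54 (adjusted p = 0.0142), a call lost with equal column totals (0.12) and without vector replicate 3 (0.055) or LACTB replicate 3 (0.085). Of 7 genes of branched-chain 2-oxoacid oxidation, whose complex also uses DLD, 3 fell and none rose (1 and 1 with equal column totals, 3 and none after length/GC correction). BCKDHA, the E1 alpha subunit, fell by 0.67 (adjusted p = 8.08e-05), with a difference of -0.26 after length/GC correction. Calls on the kinase BCKDK (-0.43, adjusted p = 0.00356) and the aminotransferase BCAT2 (-0.45, adjusted p = 0.00366) ended with equal column totals (0.093 and 0.087) and after length/GC correction (0.65 and 0.78), that on BCAT2 also without LACTB replicate 2 (0.0502).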

How the data were processed

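RNA was measured in 3 vector and 3 LACTB libraries of LN229 cells. The labels name Trizol and chloroform for extraction and NEB for library construction. HISAT2 and hg38 are named per the submitters' processing notes. The counter, annotation, strand setting and scaling: not given in the sources used here. Deposited signal values were read as normalized read counts, and the reads behind them are unknown: the best single step left 31.6% to 54.5% of low values whole (tolerance 0.05, 10% by chance), so no count model was used and precision rests on library spread.

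Values under 1e-10 were set to 0. For 9 doubled symbols the row with the higher mean was kept. Genes whose mean reached 1 CPM of the mean column total were compared as log2(value + 1), which understates changes of low genes, with limma 3.58.1 (trend, robust; R 4.3.3), two-sided, Benjamini-Hochberg adjusted over 12939 genes, threshold 0.05. The fit was also run on simulated data with independent normal noise and far fewer changed genes than here. The simulation had neither the length and GC trend nor the zero pattern of the vector columns. It therefore cannot show how the fit behaves on these data. Groups came from sample titles. The members and lists were chosen with earlier results of these data known. Named genes were those changed at least 1.5-fold, in a tested pair or in a named complex, and the 3 smallest adjusted p of each related list. Other members are given too. Some genes of the list of other enzymes are not reported here. Exon overlaps with another gene were found for 18 members, and 9 have pseudogenes of their name (GENCODE 29, GRCh38). Upstream sequences are from RefSeq. Alternatives were other scalings, filters, pseudocounts, thresholds and limma settings, a replicate block, each library left out, and a spline on transcript length and GC removed. Figures used matplotlib 3.10.9 in Python 3.11.15.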

Additional observations from a re-analysis of the deposited data

How the results depend on the processing

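With equal column totals 1913 genes were called lower (3177 as deposited), and among the members 6 were called lower (14) and 5 higher (3). That scaling raises all LACTB values relative to vector by its construction. All other alternatives left these counts within 1.5 times. Leaving out 1 library gave 10 to 14 members lower and 3 higher, with 2535 to 3468 genes lower and 2809 to 3873 higher overall. An adjusted p threshold of 0.01 left 10 members lower and 3 higher. After length/GC correction, alone or with the replicate block, the sign turned for the called MDH2 (0.016) and ME2 (-0.055), for ACO1, which then passed (-0.23), and for PDHX (-0.008), PDK2 (0.10), OGDH (0.12) and SUCLA2 (-0.17), which passed in neither. Other scalings also turned the sign of members with differences near 0 that were not called. The cause was not tested. Pseudocounts of 0.1 and of 1 CPM changed no member's call. The replicate numbers are only numbers: deviations of same-numbered libraries correlated at 0.023, 0.182 and 0.003. Adding them as a block, 14 members were lower and 3 higher, no member's call changed, and 3206 genes were lower and 3673 higher. The block together with length/GC correction gave 17 members lower, among them MPC2 (adjusted p = 0.048) and IDH3A (0.039), which passed in no other fit. The reads behind each value are unknown, so for low genes such as PDK4 the limit set by depth cannot be given.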
